A study of Bos taurus with 24 samples.

Results

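RBL1 (ENSBTAG00000011541) and E2F1 (ENSBTAG00000003971) were followed through all 8 conditions of the study, as 2 of the 24616 genes in the gene tables. Both were chosen because the study listed them among transcription factors predicted as upstream regulators of genes whose 18 h response differed between high and low responder cows. The choice thus used 18 h high-minus-low differences, of other genes as well as of both factors. Those of RBL1 and E2F1 are given below as a description with no test. Monocyte-derived macrophages (MDMs) were grown in serum-free medium with GM-CSF from blood monocytes of 6 lactating Holstein cows, 3 in the High Responder and 3 in the Low Responder group. The groups had been set by the nitric oxide that MDMs of these cows released in culture after E. coli. For each cow and time point, 1 well was left untreated (Ctrl) and 1 was exposed to E. coli inactivated with paraformaldehyde, and mRNA was taken after 3 or 18 hours, which gave 24 libraries and 3 per condition. All wells shared the GM-CSF culture, each cow gave 1 well per condition, and the labels do not say which wells of the 2 time points came from the same cow.

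E2F1 is a transcription factor that activates genes needed to enter S phase, among them genes for DNA replication and nucleotide synthesis. RBL1, also called p107, is a pocket protein of the retinoblastoma family that binds E2F factors, mainly those that repress, and takes part in the DREAM complex, which silences cell cycle genes in resting cells. RBL1 is itself a known E2F target, as E2F1 is. Macrophages grown from blood monocytes are mostly resting cells, in which a minority can still divide.

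Levels are given as CPM, counts scaled to a common library size after TMM normalisation (a correction for library composition), and libraries are named by their code number (91 to 94) within a group. Totals ranged from 6297190 to 20936554 expected counts per library. RBL1 had between 89 and 933 counts and E2F1 between 31 and 382, so that neither gene was near 0 in any library. Each gene has 1 transcript model, of 3800 bases for RBL1 and 1320 for E2F1, and the counts of both were whole numbers in all 24 libraries. In these bulk libraries, fewer cells of a type, such as dividing cells, and less RNA per cell cannot be told apart. "Called" means an adjusted p below 0.05 and a fold change above 1.5 in edgeR's quasi-likelihood test.

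Macrophage genes were present in every library. Of 10 macrophage and myeloid markers, 4 had an identifier here. CD68, a lysosomal membrane protein, lay between 1174 and 2537 CPM and CD14, the coreceptor for lipopolysaccharide, between 76.7 and 567 CPM. The B cell marker CD79A had 1 to 25 counts per library, and none of the markers of dendritic cells, T and NK cells or platelets had an identifier here.

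RBL1 fell after exposure to E. coli at both time points. At 18 hours, the High Responder control wells had 55.2, 55.1 and 47.0 CPM (codes 91, 93 and 94) and the exposed wells 15.4, 16.0 and 12.9 CPM. The Low Responder control wells had 36.6, 38.4 and 42.0 CPM (codes 91, 92 and 94) and the exposed wells 18.0, 21.1 and 21.4 CPM. No exposed well at 18 hours reached the lowest control well, and the level was lower in the exposed well of 6 of 6 cows. The mean effect over both phenotypes was −1.41 on the log2 scale (SE 0.064), a 2.66-fold lower level, with an adjusted p of 6.23e-08 in edgeR's quasi-likelihood test. This is another contrast of the same libraries than the one that chose the gene. Of all genes tested at 18 hours, 21.4% were called lower and 15.1% higher, and 8.61% had a log2 change as low as that of RBL1 or lower.

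E2F1 also fell at 18 hours, and its log2 change was larger in size. The control wells had 25.2, 24.7 and 23.8 CPM in the High Responder group and 14.6, 14.9 and 20.7 CPM in the Low Responder group. After exposure, they had 3.81, 5.65 and 3.73 CPM in the High Responder group and 4.11, 6.48 and 6.57 CPM in the Low Responder group. All 6 exposed wells lay far below all 6 control wells. The mean effect was −2.03 on the log2 scale (SE 0.12), a 4.10-fold lower level (edgeR quasi-likelihood test, adjusted p = 2.99e-07), and 4.57% of all genes tested had a change as low or lower.

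**Figure D1:**
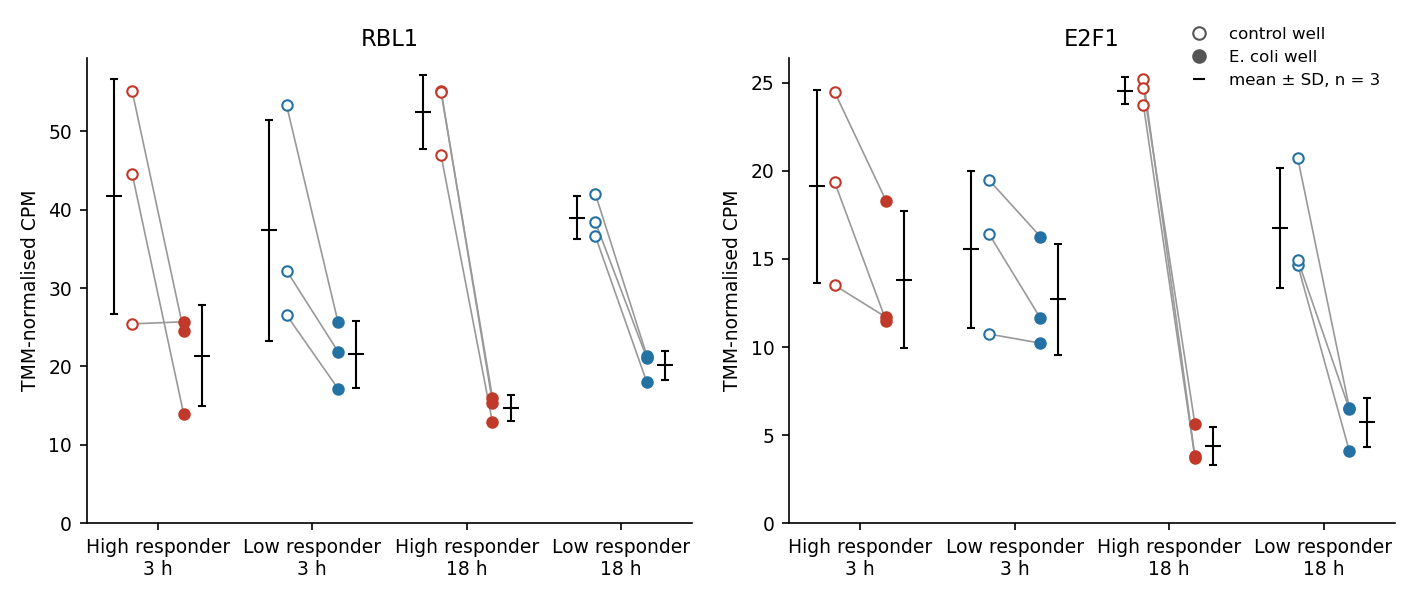
TMM-normalised CPM of RBL1 (left) and E2F1 (right) in each of the 24 libraries, by phenotype and time point. Hollow points are control wells, filled points E. coli wells, grey lines join the wells of 1 cow, and black bars give mean ± SD (n = 3). At 18 hours every exposed well lies below every control well for both genes, whereas at 3 hours exposed and control wells of E2F1 overlap and 1 high responder cow shows no fall of RBL1.

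At 3 hours, RBL1 had already fallen. Its control wells had 55.1, 25.4 and 44.5 CPM in the High Responder group (codes 92, 94 and 93) and 26.6, 32.2 and 53.3 CPM in the Low Responder group (codes 92, 91 and 93). Its exposed wells had 24.5, 25.7 and 13.9 CPM in the High Responder group and 17.2, 21.9 and 25.6 CPM in the Low Responder group. The exposed well was lower in 5 of 6 cows, and control and exposed wells overlapped through 1 cow only, High Responder code 94. The mean effect was −0.81 on the log2 scale (SE 0.20), a 1.75-fold lower level (edgeR quasi-likelihood test, adjusted p = 0.0110). Of all genes tested at 3 hours, 12% were called lower and 13.5% higher, that is 1350 and 1522 genes, a split that turned to 2054 lower and 1244 higher with upper quartile factors, which moved the median log2 change of all genes to −0.17.

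High Responder code 94 was the cow in which RBL1 was not lower at 3 hours. In its control library, the log2 level deviated from the mean of the 6 control libraries of 3 hours by −0.56 for RBL1 and by 0.54 for E2F1, and RBL1 was almost as low in the Low Responder control library of code 92 (−0.50). Over 11905 genes, the deviation of this library from that mean had a Spearman rho of −0.33 with transcript length, against −0.26 to 0.25 in the other 23 libraries, each set against libraries of its own time and treatment. The RBL1 model is longer than 87.7% of these genes and that of E2F1 longer than 26.5%. In the Low Responder control library of code 92, rho was 0.18 and E2F1 deviated by −0.63. The part of transcript length in the values of both libraries was not tested. With the length trend of each library removed, an alternative chosen after the data were seen, RBL1 fell by 0.77 on the log2 scale at 3 hours (adjusted p = 0.00399). With no such correction, RBL1 fell by 1.06 without High Responder code 94 (adjusted p = 3.71e-06, edgeR quasi-likelihood test) and by 0.62 without High Responder code 93 (adjusted p = 0.0284).

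E2F1 was not called at 3 hours. Its control wells had 13.5, 24.5 and 19.4 CPM in the High Responder group and 10.7, 16.4 and 19.5 CPM in the Low Responder group. Its exposed wells had 11.7, 18.3 and 11.5 CPM in the High Responder group and 10.2, 11.6 and 16.3 CPM in the Low Responder group. The exposed well was below the control well in 6 of 6 cows, but the ranges of control and exposed wells overlapped in both groups. Of all genes tested at 3 hours, 24.6% had a mean log2 change as low as that of E2F1 or lower. How many of all genes were lower in 6 of 6 cows was not counted. The mean effect was −0.35 on the log2 scale (SE 0.12, 95% interval −0.63 to −0.07). Its adjusted p was 0.0492 in edgeR's quasi-likelihood test and its fold 1.27, below the minimum of 1.5. This p depended on the setting. In the same test it was 0.301 without the term for the cow and 0.184 without Low Responder code 91, and with DESeq2 it was 0.0908. In the edgeR test it was 0.0290 without High Responder code 94 and 0.00872 with upper quartile factors. The fold stayed below 1.5 in every setting.

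The fall of E2F1 deepened between 3 and 18 hours. In a fit of all 24 libraries, its mean E. coli effect changed by −1.64 on the log2 scale from 3 to 18 hours (SE 0.17, adjusted p = 7.17e-06, edgeR quasi-likelihood test), and 16.1% of all genes tested were called lower in this comparison. For RBL1 the change was −0.55 (SE 0.22, 95% interval −1.03 to −0.07, adjusted p = 0.0648), which was not called. It was called with DESeq2-type size factors (−0.59, adjusted p = 0.0491), with DESeq2 (−0.59, adjusted p = 0.0377) and without High Responder code 93 of 3 hours (−0.73, adjusted p = 0.00862). Its value was −0.29 without High Responder code 94 of 3 hours (adjusted p = 0.0697) and −0.52 without the term for the cow (adjusted p = 0.183).

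Untreated wells gave no called difference between the time points. From 3 to 18 hours in control wells, RBL1 differed by 0.22 (95% interval −0.20 to 0.63) and E2F1 by 0.24 (−0.13 to 0.62) on the log2 scale, with adjusted p of 0.798 and 0.710 in edgeR's quasi-likelihood test. Of all genes tested, 0.0259% were called in this comparison, which is 3 genes. That count was 45 with the letter of the library code as a block across time points and 55 with DESeq2. Neither setting called RBL1 or E2F1.

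By phenotype, the values at 3 hours were not used to choose the genes. RBL1 fell by 0.87 on the log2 scale in the High Responder group (SE 0.29, adjusted p = 0.0433), where 11.9% of all genes tested were called lower. This call depended on the libraries and on the cow term. The value without High Responder code 94 was −1.38 (adjusted p = 3.05e-05), whereas the call was lost without code 92 (−0.76, adjusted p = 0.172) or code 93 (−0.49, adjusted p = 0.248) of the same group, without any 1 Low Responder cow (adjusted p of 0.0765, 0.0635 and 0.0576 for codes 92, 91 and 93) and without the term for the cow (−0.91, adjusted p = 0.0934). In the Low Responder group the value was −0.75 (SE 0.28, adjusted p = 0.0954), which was not called, and 7.77% of all genes tested were called lower. Without High Responder code 94 or 93, whose spread entered the same fit, the Low Responder value of −0.74 or −0.75 was called (adjusted p = 0.00115 and 0.0492). E2F1 had −0.42 in the High Responder group (SE 0.17, adjusted p = 0.0922) and −0.27 in the Low Responder group (SE 0.18, adjusted p = 0.304). All adjusted p values are those of edgeR's quasi-likelihood test.

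The test of the difference between both effects at 3 hours called neither gene. RBL1 differed by −0.12, high minus low, with a 95% interval of −1.04 to 0.79 (adjusted p = 0.921), and E2F1 by −0.14, with an interval of −0.70 to 0.41 (adjusted p = 0.836, edgeR quasi-likelihood test). Of all genes tested, 0.178% were called, which is 20 genes. This count was 505 without High Responder code 94, 13 without code 92, 0 without code 93, without any 1 Low Responder cow or without the term for the cow, and 189 with DESeq2. At an unadjusted p below 0.05 there were 1430 genes with the term for the cow and 329 without the term for the cow. The RBL1 difference was −0.64 without High Responder code 94 and 0.26 without code 93, so that its direction rested on single cows.

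Levels at 3 hours also overlapped between the phenotypes. In control wells, RBL1 was 41.7 ± 15.0 CPM (SD, n = 3) in the High Responder and 37.4 ± 14.1 CPM in the Low Responder group, and E2F1 was 19.1 ± 5.49 and 15.5 ± 4.44 CPM. The log2 differences, high minus low, were 0.15 (95% interval −0.66 to 0.96) for RBL1 and 0.30 (−0.45 to 1.05) for E2F1, both with an adjusted p of 0.998 in edgeR's quasi-likelihood test, and 0.00906% of all genes tested, 1 gene, were called. In exposed wells, RBL1 was 21.4 ± 6.48 and 21.6 ± 4.24 CPM and E2F1 13.8 ± 3.88 and 12.7 ± 3.16 CPM. The differences were 0.01 (−0.61 to 0.64, adjusted p = 0.990) and 0.15 (−0.49 to 0.80, adjusted p = 0.833) in the same test, where 0.0839% of all genes tested, 9 genes, were called.

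The 18 h values by phenotype took part in the choice of the genes and carry no test. The log2 change per cow lay between −1.86 and −1.77 in the High Responder group and between −1.02 and −0.86 in the Low Responder group for RBL1. For E2F1 it lay between −2.68 and −2.10 and between −1.79 and −1.18. The groups did not overlap for either gene, which in this direction held for 11.9% of all genes compared. The fitted effects were −1.84 (SE 0.093) and −0.98 (SE 0.088) for RBL1 and −2.50 (SE 0.17) and −1.57 (SE 0.16) for E2F1. The fitted difference, high minus low, was −0.87 (SE 0.13) for RBL1 and −0.93 (SE 0.24) for E2F1, and 1.62% of all genes tested, 190 genes, were called in this comparison. That count was 0 without the term for the cow (1149 genes at an unadjusted p below 0.05), 30 without Low Responder code 92, 76 without Low Responder code 94 and 398 with DESeq2.

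Both sides of the comparison entered that difference. In untreated wells at 18 hours, RBL1 had 52.4 ± 4.72 CPM in the High Responder group and 39.0 ± 2.74 CPM in the Low Responder group (SD, n = 3), a log2 difference of 0.41 (SE 0.10). In exposed wells it had 14.8 ± 1.66 and 20.1 ± 1.87 CPM, a log2 difference of −0.45 (SE 0.14). E2F1 had 24.6 ± 0.742 and 16.8 ± 3.42 CPM in untreated wells (0.54, SE 0.15) and 4.39 ± 1.09 and 5.72 ± 1.39 CPM in exposed wells (−0.38, SE 0.29). High Responder means were thus above the Low Responder means in untreated wells and below them in exposed wells for both transcripts. The wells of the groups did not overlap except for E2F1 in exposed wells. Among all genes compared, 14.9% had all High Responder above all Low Responder control wells and 12.3% all High Responder below all Low Responder exposed wells.

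**Figure D2:**
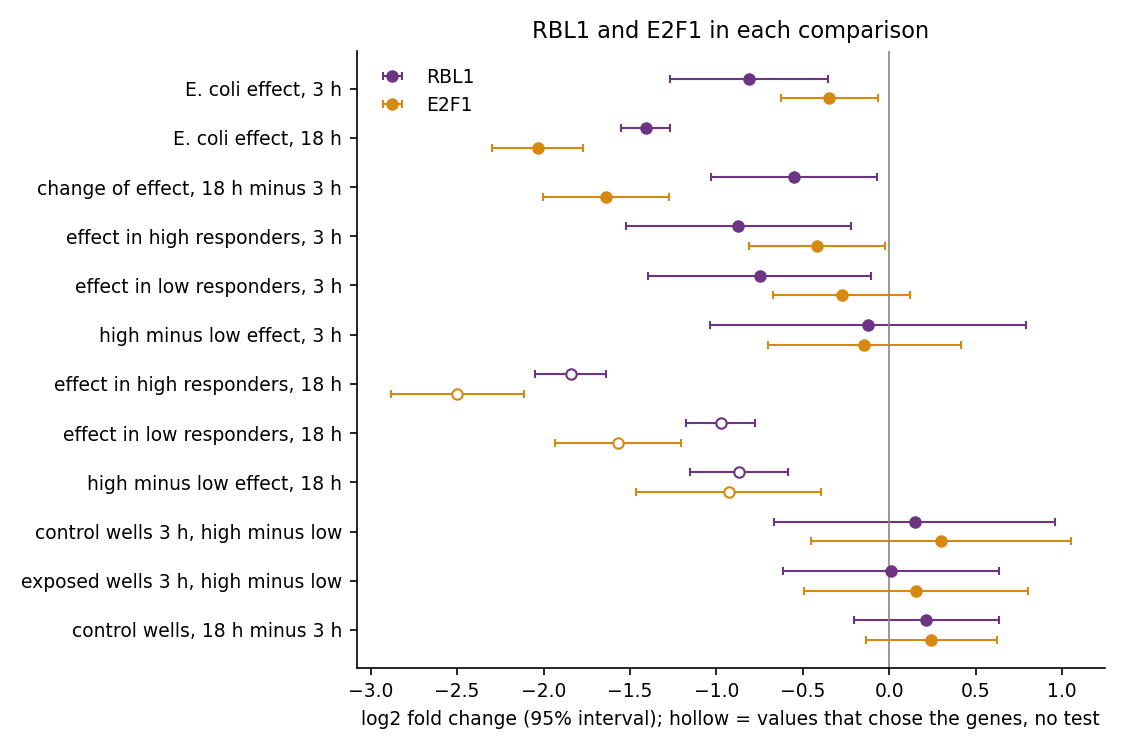
Log2 fold change of RBL1 and E2F1 in each comparison, with 95% intervals from the edgeR fits. Hollow points mark the 18 h values by phenotype, which took part in the choice of the genes and have no test. The E. coli effect on E2F1 moves from −0.35 at 3 hours to −2.03 at 18 hours, that on RBL1 from −0.81 to −1.41, and the intervals of the 3 h comparisons between phenotypes all include 0.

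Over the 8 conditions, the order of the mean levels was nearly shared. For both genes it ran from the High Responder control wells of 18 hours through those of 3 hours and the Low Responder control wells of 18 and of 3 hours to the exposed wells, with the High Responder exposed wells of 18 hours last. The genes differed at 1 place, the exposed wells of 3 hours, where the Low Responder mean stood above the High Responder mean for RBL1 and below it for E2F1. Of 7 neighbouring pairs in this order, 2 did not overlap for RBL1, between the Low Responder control and exposed wells of 3 hours and between the Low and High Responder exposed wells of 18 hours. For E2F1 1 pair did not overlap, between the Low Responder exposed wells of 3 and of 18 hours. How often such gaps occur among all genes was not counted, so these counts only describe both genes.

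The balance between the transcripts was compared within libraries as a ratio of TPM, a level per transcript length. E2F1 had the higher TPM in 18 of 24 libraries, and the ratio of E2F1 to RBL1 ranged from 0.723 to 3.06. At 18 hours it was 1.43 to 1.60 in the High Responder and 1.24 to 1.57 in the Low Responder control wells, and 0.791 to 1.12 and 0.723 to 0.982 in the exposed wells. All 6 exposed wells of 18 hours thus had a lower ratio than all 6 control wells. At 3 hours the ratio was 0.777 to 3.06 in the High Responder and 1.17 to 1.62 in the Low Responder control wells, and 1.51 to 2.62 and 1.69 to 2.02 in the exposed wells, so that exposed wells lay higher without overlap in the Low Responder group only. The highest and the lowest ratio of the control wells at 3 hours were those of High Responder codes 94 and 92. The deviations of these libraries had a rho with transcript length of −0.33 and 0.16, and the models of both genes differ in length. The part of length in the ratios was not tested.

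**Figure D3:**
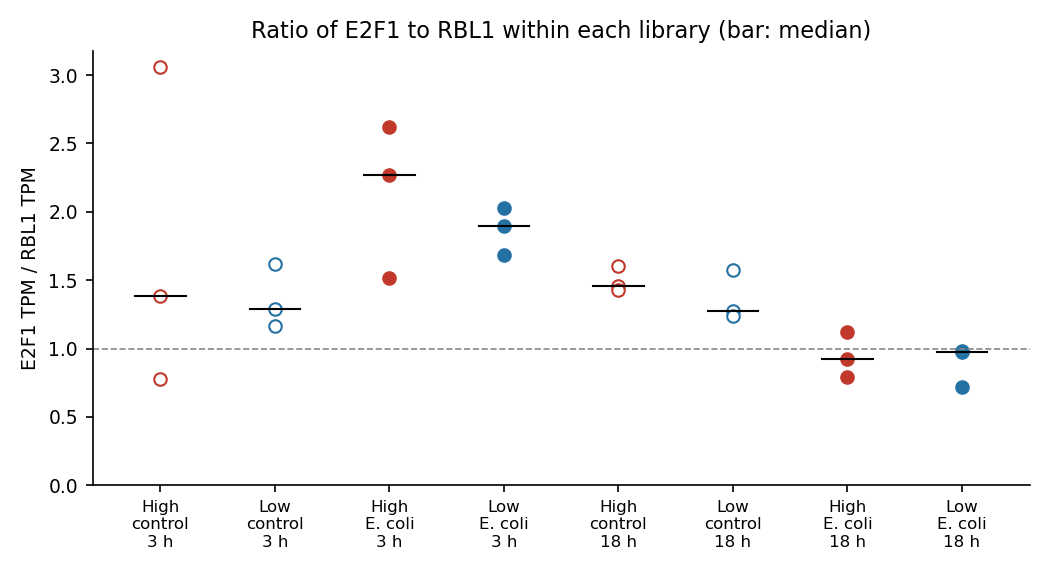
Ratio of the TPM of E2F1 to that of RBL1 in each library, by condition (hollow points, control; filled points, E. coli; bars, median of 3; dashed line, equal levels). Exposed wells lie between 1.51 and 2.62 at 3 hours and between 0.723 and 1.12 at 18 hours.

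Cell cycle genes were grouped by textbook role. Of 123 genes listed, 59 had an identifier here, RBL1 and E2F1 included, because symbols were read from copies of the supplementary tables that end after 1997 rows. Of the 59, 46 were found only in the copy whose rows are in part ranked by the 18 h difference between phenotypes, so that being identified was in part selected on these data, and 13 were in the copy kept in identifier order. Without RBL1 and E2F1, 22 of 57 were called lower, 1 was called higher and 34 were not called at 3 hours, with a median log2 change of −0.47 against −0.02 over all genes tested. At 18 hours, 53 fell, 2 rose and 2 were not called, with a median of −2.21 against −0.02. Over all genes tested, 12% were called lower and 13.5% higher at 3 hours, and 21.4% and 15.1% at 18 hours. Of the 13 genes in identifier order, 6 fell at 3 hours and 11 at 18 hours, with medians of −0.43 and −1.60. Among all 59, the change of RBL1 was the 11th lowest at 3 hours and the 47th at 18 hours, and that of E2F1 the 37th and the 35th.

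Among the E2F factors, E2F8 was the other member with an identifier. It is an atypical E2F that represses E2F targets late in S phase, and fell by 3.62 on the log2 scale at 18 hours (SE 0.17, adjusted p = 8.30e-08), after −0.49 at 3 hours, where it was not called. CCNE2, the cyclin E2 that drives entry into S phase with CDK2, had −0.58 at 3 hours, also not called, and fell by 3.29 at 18 hours (SE 0.18, adjusted p = 1.65e-07). No other pocket protein or DREAM subunit had an identifier.

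Of 7 CDK inhibitors listed, the 3 with an identifier did not move together. All 3 came from the copy ranked in part by the 18 h difference. CDKN1A (p21), which blocks cyclin-CDK complexes, rose by 1.52 on the log2 scale at 3 hours (SE 0.14, adjusted p = 3.38e-05) and by 0.84 at 18 hours (SE 0.091, adjusted p = 2.13e-05). CDKN1B (p27) had −0.01 at 3 hours, not called, and rose by 0.65 at 18 hours (SE 0.085). CDKN2C (p18), an inhibitor of CDK4 and CDK6, fell, with log2 changes of −1.21 and −3.02.

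Genes of DNA replication and nucleotide synthesis, the group that holds textbook targets of E2F1, fell early. Of 29, 17 were called lower at 3 hours and 27 at 18 hours, with medians of −0.67 and −1.68 and none higher. Of all genes tested, 12% and 21.4% were called lower. In the copy kept in identifier order were 10 of the 29, of which 6 and 8 were called lower. Among all 29, the largest falls at 3 hours were those of ORC6 (−1.37) and ORC1 (−1.30), subunits of the origin recognition complex, CDC6 (−1.30), which loads the MCM helicase, and ASF1B (−1.28), a histone chaperone. At 18 hours they were those of UHRF1 (−3.27), which helps to keep DNA methylation, CDC6 (−3.16), ORC1 (−3.06) and CDT1 (−3.0), a licensing factor. UHRF1 had not been called at 3 hours (0.05).

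Genes of G2 and mitosis were called lower at 18 hours in 23 of 23 cases and at 3 hours in 4 of 23, with medians of −2.49 and −0.20. Of all genes tested, 21.4% were called lower at 18 hours and 12% at 3 hours. Only 3 of the 23 were in the copy kept in identifier order. The others came from the copy ranked in part by the 18 h difference. The 4 called lower at 3 hours were CDC20 (−0.98), an activator of the anaphase-promoting complex, CCNF (−0.76), cyclin F, MAD2L1 (−0.74), a spindle checkpoint protein, and FOXM1 (−0.71), a transcription factor for mitotic genes. At 18 hours the lowest values were those of CCNF (−3.27), TOP2A (−3.12), the topoisomerase of dividing cells, CDC20 (−3.06) and FOXM1 (−2.97). With a value of −0.81 at 3 hours, RBL1 stood nearer to the median of the replication group, and E2F1, with −0.35, between the medians of both groups. The summed level of the 23 genes was 1111 to 2094 CPM in the 6 control libraries and 126 to 414 CPM in the 6 exposed libraries of 18 hours, without overlap. At 3 hours it was 719 to 1797 CPM and 537 to 1494 CPM, with overlap. It thus moved with both genes at 18 hours, and its part in their change was not tested.

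**Figure D4:**
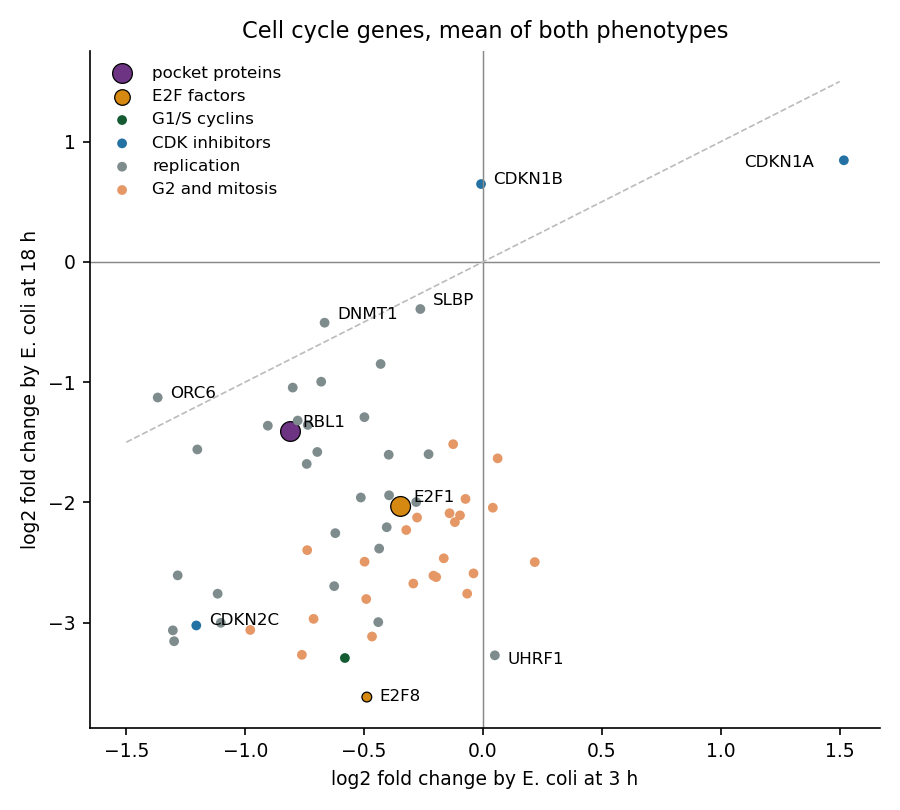
Log2 fold change by E. coli (mean of both phenotypes) at 3 hours (x axis) and 18 hours (y axis) for the 59 cell cycle genes with an identifier, coloured by role, with large points for RBL1 and E2F1 and a dashed line where both changes are equal. Most genes lie in the lower left, RBL1 at −0.81 and −1.41 and E2F1 at −0.35 and −2.03, and CDKN1A lies apart at 1.52 and 0.84.

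Macrophage markers also moved at 18 hours. MSR1, a scavenger receptor, fell by 3.76 on the log2 scale, AIF1 by 0.95 and CD14 by 0.75, and CD68 rose by 0.61, whereas none of these 4 was called at 3 hours. Their summed level overlapped between control libraries (1845 to 3159 CPM) and exposed libraries (2005 to 3032 CPM) of 18 hours. This sum held opposite changes, as mean CD68 went from 1449 to 2239 CPM and mean MSR1 from 633 to 47.9 CPM. The overlap thus does not mean that the markers were unchanged. The part of these changes in the values of RBL1 and E2F1 was not tested.

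The difference between phenotypes at 18 hours had the same sign in most of the other cell cycle genes identified. It was negative, high minus low, in 12 of the 13 genes in identifier order, with a median of −0.56, against 52.4% of all genes tested and a median of −0.02. POLE, the catalytic subunit of a leading-strand DNA polymerase, had −1.26 (SE 0.24) and ORC6 0.06 (SE 0.18). These genes come from the same wells as RBL1 and E2F1 and are no independent support. At 3 hours 9 of the 13 were negative, with a median of −0.16, against 46.4% of all genes tested.

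Genes with the level pattern most like each member were found by Pearson's r of log2 CPM over the 24 libraries, among 11904 other genes. For RBL1 they were GEN1, a Holliday junction resolvase (r = 0.97), BRCA2, a recombination protein (0.96), MCM10, a replication initiation factor (0.95), PRIM1, a primase subunit (0.94), and ENSBTAG00000004240, which has no symbol here (0.94). For E2F1 they were the helicase subunits MCM2 (0.98), MCM3 (0.97) and MCM5 (0.97), the centromere protein CENPM (0.97) and LIG1, a DNA ligase (0.96). None of the 5 genes was shared between the members. RBL1 and E2F1 had r = 0.79 with each other, which put E2F1 at rank 389 for RBL1 and RBL1 at rank 690 for E2F1. Over deviations from the condition means, r of RBL1 with E2F1 was 0.30. Among the macrophage markers, MSR1 had r = 0.89 with E2F1 over the 24 libraries, above that of RBL1. AIF1, CD14 and CD68 had 0.62, 0.49 and −0.67. A high r with E2F1 was thus not limited to cell cycle genes. These correlations are descriptions over libraries that share cows and treatments and differ in depth.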

How the data were processed

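The authors trimmed read pairs with Trimmomatic, checked them with FastQC 0.11.5, mapped them with STAR to UMD 3.1, quantified genes with RSEM and tested them with DESeq2 1.22.2. Per gene, the deposited values are expected counts from RSEM, not normalized, with TPM and effective lengths (in bases). Expected counts were rounded. R 4.3.3 with edgeR 4.0.16 was used on all genes: TMM, a filter for low counts by condition, quasi-likelihood models with cow terms and 1 E. coli effect per phenotype, and Benjamini-Hochberg adjustment over all genes tested. Phenotypes were compared within treatment in fits of 6 libraries, and control wells between time points in 12. Control and exposed wells with the same code number within phenotype and time were paired, since deviations from group means correlated at 0.34 to 0.69 in 12 same-number pairs and at −0.52 to −0.01 in 24 others. The deviations in a group sum to 0, so positive values of same-number pairs push the others down. These values cannot tell a shared cow from another feature that libraries of the same number share. With 3 cows per group, an exact permutation test of 1 value cannot give a p below 0.1. The scripts were tested on simulated data, with the same spread setting for all genes and no differences between cows, which is simpler than these data.

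The members, lists and tests were chosen with earlier results of these data known. Named genes were both members, all identified pocket proteins, E2F factors and CDK inhibitors, up to 4 called genes of each other list and time with the largest change, and the 5 genes most like each member. Removal of the length trend was added after the data were seen, and POLE and ORC6, named for their phenotype differences, were chosen after their values were seen. Alternatives were other size factors, other filters, DESeq2 1.42.0, length offsets, an adjusted p below 0.1, a term for library codes, no cow term, the letter of the library code as a block across time points, and leaving out the wells of each cow at 1 time point. In fits of both time points, the other wells of that cow stayed in, since the labels do not link them. Symbols came from copies of 2 supplementary tables, whose values and the authors' own test columns were not used. No genome of the files' build was used here, so no sequence or coordinate is given.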

Additional observations from a re-analysis of the deposited data

Results flagged for a closer look

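The E. coli effect on E2F1 differed between the time points by the test of that difference itself. It changed by −1.64 on the log2 scale from 3 to 18 hours (edgeR quasi-likelihood test, adjusted p = 7.17e-06). The level was lower in the exposed well of 6 of 6 cows at each time point. Of all genes tested, 24.6% at 3 hours and 4.57% at 18 hours had a mean change as low as that of E2F1 or lower.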

How the results depend on the processing

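Of 354 recomputed values, 326 kept their direction and their side of the threshold (counts stayed within 1.5 times, untested values within the spread between cows), 15 reversed, 7 gained and 6 lost a call. The mean E. coli effects at 3 and 18 hours, the change of the E2F1 effect and the 18 h differences kept theirs throughout. All reversed values belong to differences between phenotypes at 3 hours, none of which was called. The RBL1 difference in exposed wells (0.01) was −0.0159 with DESeq2-type size factors, −0.0161 with DESeq2, −0.0664 with upper quartile factors, −0.0066 without a filter, −0.0195 with a mean count of 50 or more, −0.0070 with offsets for effective length and −0.14 with the length trend removed. Leaving out single cows gave −0.17 to 0.22 for it, −0.13 to 0.36 for E2F1 in exposed wells, −0.0792 to 0.47 for RBL1 in control wells, and −0.64 to 0.26 (RBL1) and −0.26 to 0.0185 (E2F1) for the difference of the effects. The RBL1 effect in high responders at 3 hours lost its call without the replicate block (−0.91) and ranged from −1.38 to −0.49 over left-out cows, and the block changed no other call of RBL1 or E2F1. Without the block, called cell cycle genes went from 24 to 17 at 3 hours, and the genes called for the difference of the effects from 20 to 0 at 3 hours and from 190 to 0 at 18 hours. E2F1 in high responders at 3 hours was called with upper quartile factors (−0.61), which moved the median of all genes in that contrast to −0.21. RBL1 in low responders at 3 hours was called at an adjusted p below 0.1 (−0.75) and ranged from −0.84 to −0.58. The RBL1 change of effect was called with DESeq2-type size factors (−0.59) and DESeq2 (−0.59) and ranged from −0.73 to −0.29. The count of called cell cycle genes was 24 at 3 hours (17 to 33) and 57 at 18 hours (56 to 57). The causes of these changes were not tested.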
